A study of Mus musculus with 4 samples.

Results

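The TNF superfamily ligands Cd70, Ltb, Lta, Tnf, Tnfsf11, Fasl, Cd40lg and Tnfsf10 were followed in a clone of mouse Th1 cells, the interferon gamma-producing kind of CD4 helper T cell. All probe sets that the array annotation assigned to a single one of these 8 genes were taken, which gave 9 of the 12488 probe sets and 8 of 8251 genes with such a probe set. Lta had 2 of them and every other gene had 1. No probe set with several gene symbols included one of the 8 genes. The anergic group consisted of 2 arrays of the Th1 clone after plate-bound anti-CD3, an antibody that triggers the T cell receptor complex, had made it anergic. The control group consisted of 2 arrays of the same kind of clone in its normal, quiescent state. The study was set up to find genes that differ in T cell anergy, a state in which a T cell responds poorly to its next stimulus. The mouse strain, the name of the clone, the length of the antibody treatment and the time between treatment and RNA extraction are not stated in the labels. Separate cultures are not named for the arrays of a group either. The p-values thus reflect only the spread of values on these arrays, borrowed largely from other probe sets, and that spread may be technical. No array held cells stimulated without becoming anergic, so the anergic state and the exposure to antibody cannot be told apart.

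Ligands of the TNF superfamily are made as membrane proteins that assemble into trimers and bind receptors of the TNF receptor superfamily on neighbouring cells. Some of them are also cut from the surface and act at a distance. In CD4 T cells they carry help to B cells and dendritic cells, costimulate other T cells, shape lymphoid tissue and can kill target cells, and most of their genes respond to signals of the T cell receptor.

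The values are intensities on a linear scale, 1 per probe set and array, and no depth is defined for them, so the number of arrays limits the precision. Median intensities over all probe sets were 134.1 and 175.8 on anergic arrays 1 and 2, and 146.5 and 191.2 on control arrays 1 and 2. The 9 bacterial spike-in probe sets had a geometric mean of 1972 on control array 2, against 870.4 to 1014 on the other arrays. Most markers of T cells were bright in both groups. Summed over 9 genes they were at 45120 and 39730 on the anergic arrays, and at 53170 and 40620 on the control arrays. Limma called 0 of their 8 tested probe sets, and 2 had an unadjusted p below 0.05. Of these, Thy1 was lower (-0.60) and Cd3d higher (0.68) in anergic cells. The probe set of Cd5 was below the filter, at 130.5 and 118.3 in anergic and 19.8 and 71.9 in control cells. Of the markers of CD8 T and NK cells, Cd8a, Cd8b1 and Ncr1 were dim on all 4 arrays. Klrd1, from the same list, was bright in both groups, at 5139 and 4722.9 in anergic and 4303.9 and 5510.9 in control cells. Differences are log2(intensity + 29.15) in anergic minus control cells, tested with limma over the 7453 probe sets above a filter on dim signals. A probe set was called when its Benjamini-Hochberg adjusted p was below 0.05.

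Of the 9 ligand probe sets, all of which passed the filter, Cd70 was called higher in anergic cells and the other 8 were not called. Over all 7453 probe sets tested, 100 (1.34%) were called, 68 of them higher (0.912%) and 32 lower (0.429%) in anergic cells. After each array was centred on its median the split was 52 higher and 12 lower, and the median difference of all probe sets moved to 0.021, from -0.085 on the deposited scale. By unadjusted p, 3 ligand probe sets were below 0.05 (Cd70, Ltb and Tnfsf11), against a background of 11.3%. The arrays of the groups did not overlap for 5 of the 9, those of Cd70, Tnfsf11, Tnf and Ltb and 1 of Lta, where 40.3% of all probe sets had this property. The median difference was 0.36 for the 9 ligand probe sets and -0.085 for all probe sets tested. By sign, 6 were higher and 3 lower in anergic cells, while the negative median puts most of all probe sets tested on the lower side. Among the higher ones, Cd40lg and Tnfsf10 turned lower without anergic array 2 (-0.20 and -0.06). Among the lower ones, Lta (100327_at) turned higher with centring (0.07).

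**Figure D1:**
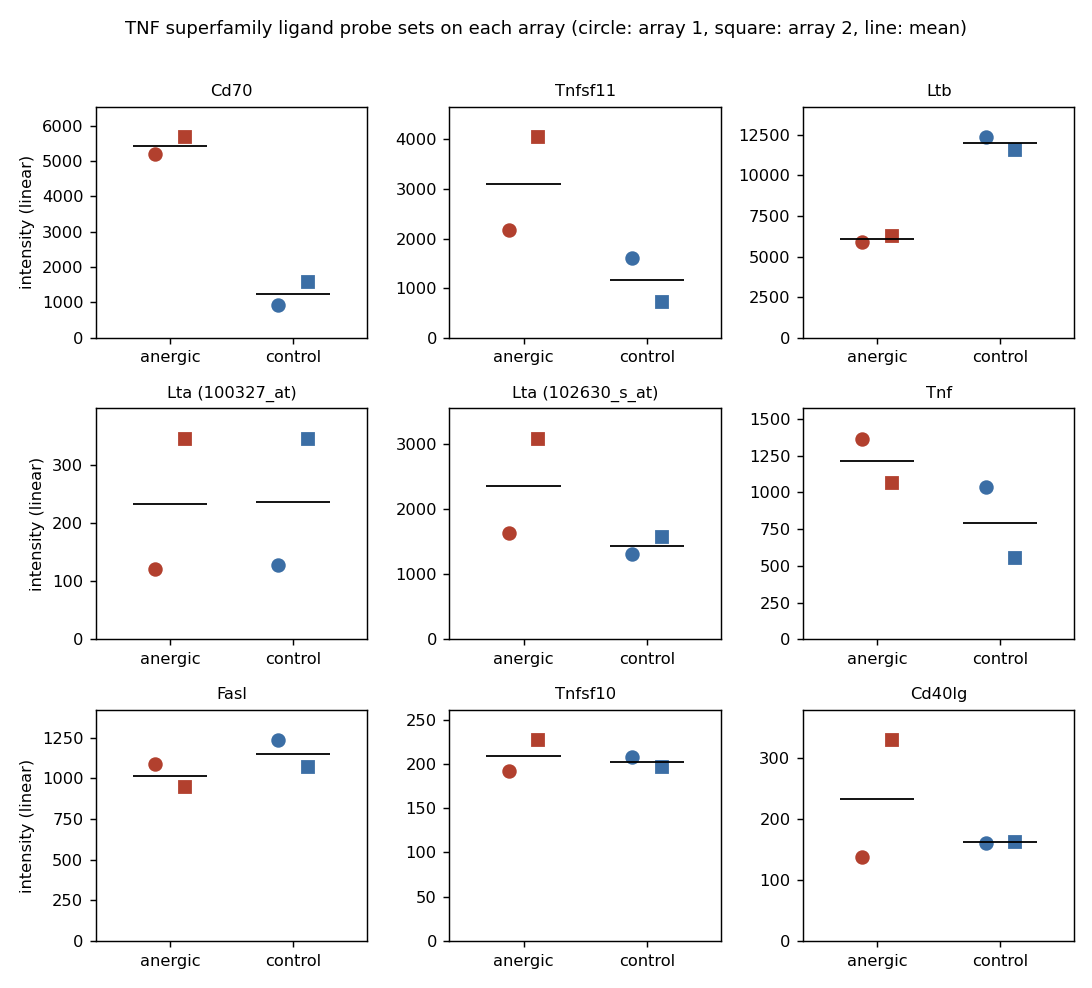
Intensity (linear scale, from 0) of each ligand probe set on the 2 anergic arrays (red, left) and the 2 control arrays (blue, right); circles are arrays numbered 1, squares arrays numbered 2, and lines the group means. Cd70 is at 5189.9 and 5689.4 on the anergic arrays, against 925.6 and 1569.8 on the control arrays, Ltb is higher in control cells, and Lta (100327_at) separates by array number rather than by group.

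Cd70 encodes a costimulatory ligand that appears on activated T and B cells and binds CD27. Its intensity was 5189.9 and 5689.4 on the anergic arrays, against 925.6 and 1569.8 on the control arrays. Every anergic value was thus more than 3 times every control value. The means were 5440 ± 353 in anergic and 1248 ± 456 in control cells (SD, n = 2 each). The log2 difference was 2.14 ± 0.29 (SE, 95% interval 1.49 to 2.80), a 4.42-fold rise, with adjusted p = 0.0134 in limma. This was number 41 among the 7453 probe sets ordered from the highest difference, and number 35 by p. Without each of the 4 arrays in turn its difference lay between 1.77 and 2.52. Such a fit leaves 1 group with a single array, so that its spread comes from the other group alone (1 residual degree of freedom) and from other probe sets, and its p-values say little of stability. Cd70 was not called when limma's spread was estimated without a trend on intensity (adjusted p = 0.0909), where the calls over all probe sets dropped to 38.

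The receptor of Cd70 is itself a T cell gene. Cd27 gave 129.8 and 67.9 in anergic cells, against 173.6 and 183.5 in control cells, at the probe set that was tested. Both anergic values were lower, but the difference of -0.74 ± 0.44 (SE) did not pass (adjusted p = 0.605 in limma). Its other probe set, below the filter, gave 40.3 and 104.7 in anergic cells, against 28 and 66.1 in control cells, and the groups overlapped with the higher mean in anergic cells. In the RefSeq gene order Cd70 lies on chromosome 17 between 2 other ligand genes of the superfamily, Tnfsf9 and Tnfsf14. Tnfsf9, the ligand of the costimulatory receptor 4-1BB, gave 431 and 718.8 in anergic cells, against 521.3 and 522.2 in control cells. Its groups overlapped, and its difference was 0.09 ± 0.32 (SE, adjusted p = 0.964). Tnfsf14 was not analysed here.

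The 3 named probe sets whose pattern over the 4 arrays was most like that of Cd70 belonged to Rasal1, Il1r2 and Hibadh. Their Euclidean distances, after each probe set's own mean log2 value was subtracted, were 0.223, 0.265 and 0.265. Il1r2, which encodes a decoy receptor for interleukin 1, had 3840.3 and 3966.5 in anergic cells, against 819.6 and 1275.6 in control cells. With 4 arrays such likeness is a description of the levels and no more.

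Ltb, Tnf and Lta follow one another on chromosome 17 within the major histocompatibility complex and code for proteins of related function. Lymphotoxin alpha, the product of Lta, is secreted as a homotrimer or held at the surface by lymphotoxin beta, the product of Ltb, and the surface form binds the receptor Ltbr. The differences of these 3 neighbours did not share a sign. The 250 bases in front of their annotated starts are shown with those of Tnfsf11, the ligand with the second highest difference, so that the letters can be read beside the values. They are RefSeq sequences of build GRCm38.p6, 5′ to 3′ on the strand of the gene, and 6 of the 8 ligand genes had an entry. Cd70, the called ligand, and Cd40lg had none, so the matches do not cover them. Capitals mark matches, on either strand, to the NF-kB consensus, the NFAT core GGAAA, the AP-1 motif TGANTCA or the TATA box TATAAA.
Ltb (chr17:35194257-35194506, + strand): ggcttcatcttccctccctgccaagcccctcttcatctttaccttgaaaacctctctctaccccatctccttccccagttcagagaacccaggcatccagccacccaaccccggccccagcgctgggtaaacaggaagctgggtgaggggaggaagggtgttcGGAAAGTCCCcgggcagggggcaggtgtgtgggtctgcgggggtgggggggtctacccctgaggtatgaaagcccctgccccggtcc
Tnf (chr17:35202008-35202257, - strand): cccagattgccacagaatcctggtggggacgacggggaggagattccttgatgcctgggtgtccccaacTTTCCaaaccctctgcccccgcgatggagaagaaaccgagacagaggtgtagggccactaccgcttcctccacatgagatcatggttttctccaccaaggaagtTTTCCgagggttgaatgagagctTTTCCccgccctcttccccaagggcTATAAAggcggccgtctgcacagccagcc
Lta (chr17:35205352-35205601, - strand): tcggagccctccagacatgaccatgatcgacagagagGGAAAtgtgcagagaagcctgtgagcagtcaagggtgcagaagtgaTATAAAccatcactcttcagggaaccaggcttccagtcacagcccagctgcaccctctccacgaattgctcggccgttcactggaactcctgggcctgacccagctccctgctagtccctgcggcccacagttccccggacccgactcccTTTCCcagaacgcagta
Tnfsf11 (chr14:78308044-78308293, - strand): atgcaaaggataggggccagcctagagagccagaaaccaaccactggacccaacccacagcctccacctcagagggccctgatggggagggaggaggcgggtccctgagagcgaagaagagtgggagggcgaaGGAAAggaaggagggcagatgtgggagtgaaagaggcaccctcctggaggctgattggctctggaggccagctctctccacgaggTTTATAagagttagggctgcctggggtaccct
In Ltb the NF-kB match covers 10 bases, from 87 to 78 before the start, and it contains the only GGAAA match of that window. None of the other 5 promoters held an NF-kB match, and 7.3% of all 32851 promoter windows of that length did. GGAAA matched 3 times in Tnf, 2 times in Lta and in Fasl, and 1 time in Ltb, Tnfsf11 and Tnfsf10, and it occurred in 55.6% of all windows. The TATA box motif matched once in Tnf, Lta and Tnfsf11 (12.4% of all windows). On the strand of the gene it lay from 29 to 24 bases before the start in Tnf and from 167 to 162 in Lta. In Tnfsf11 it lay from 32 to 27 before the start, on the opposite strand. AP-1 matched in none of the 6, against 6.7% of all windows. These matches describe letters in a short window and carry no information on binding in these cells.

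Ltb had lower values in anergic cells but did not pass the test. Its intensity was 5894.9 and 6257.4 on the anergic arrays, against 12381.9 and 11571.3 on the control arrays. The arrays of each group lay close together and the groups were far apart. The means were 6076 ± 256 in anergic and 11980 ± 573 in control cells (SD, n = 2 each), and the log2 difference was -0.98 ± 0.21 (SE, 95% interval -1.45 to -0.50). The adjusted p was 0.0791 in limma over all probe sets, so the difference missed the threshold. The adjusted p was 0.0493 with 1 probe set per gene (5583 features) and 0.0482 after quantile normalization. It was 0.0567 with the mean of the probe sets of each gene, 0.18 with no filter, 0.297 without the intensity trend and 0.31 with centring. Leaving out 1 array hardly moved the difference (-1.02 to -0.93), while the adjusted p was 0.0183 and 0.00283 without control arrays 1 and 2, and 0.731 and 0.498 without anergic arrays 1 and 2. In these fits 1 group had a single array, and the prior degrees of freedom were 36 and 176 without a control array and 9.98 and 11.7 without an anergic array, against 6.17 with all arrays. The gene for its receptor chain on other cells, Ltbr, was dim here, at 87 and 203.5 in anergic cells and 150.3 and 249.6 in control cells, with overlapping groups.

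The named probe set most like Ltb over the 4 arrays was that of Znrd1, at a distance of 0.048, followed by Cstf2 (0.126) and Anapc5 (0.127). Znrd1 had 716 and 784.3 in anergic cells, against 1575.8 and 1499.6 in control cells. On the other side of Ltb in the gene order lies Lst1, a leukocyte gene. It gave 1684 and 2747.3 in anergic cells, against 2617.4 and 2133.2 in control cells, so its groups overlapped (difference -0.13 ± 0.29, SE, adjusted p = 0.928).

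Tnf, the founding cytokine of the family, gave 1366.5 and 1062.8 in anergic cells, against 1033.6 and 553.2 in control cells. The groups did not overlap, but the lower anergic value and the higher control value nearly met. The difference was 0.65 ± 0.34 (SE, 95% interval -0.12 to 1.42, adjusted p = 0.543 in limma). It depended on the control arrays, at 0.22 without control array 2, the one that stood apart in its spike-ins, and at 1.08 without control array 1, and neither value was called.

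The 2 probe sets of Lta gave different pictures. At 102630_s_at the intensity was 1639.3 and 3084 in anergic cells, against 1308 and 1566.3 in control cells. The higher mean of the anergic group came mostly from anergic array 2, and without that array the difference was 0.19 in place of 0.64 ± 0.32 (SE, adjusted p = 0.53). At 100327_at the intensity was 120.6 and 344.8 in anergic cells, against 128.5 and 345.6 in control cells. Here array 2 was 2.86 times array 1 in anergic cells and 2.69 times array 1 in control cells, and the groups had nearly equal means (difference -0.04 ± 0.57, SE, adjusted p = 0.989). Its sign turned with the scaling, at 0.07 with centring and 0.08 with quantile normalization, and the mean of both probe sets gave 0.30 (adjusted p = 0.879).

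Tnfsf11 encodes RANKL, the ligand that drives osteoclast formation and that activated T cells give to dendritic cells. Its intensity was 2163.4 and 4052.5 on the anergic arrays, against 1613.8 and 717.7 on the control arrays. Both anergic values were the higher ones, with a wide spread inside each group. The means were 3108 ± 1336 in anergic and 1166 ± 634 in control cells (SD, n = 2 each). The log2 difference of 1.43 ± 0.42 (SE, 95% interval 0.46 to 2.40) did not pass (adjusted p = 0.214 in limma), although it was number 93 of 7453 from the highest. Without control array 1 it was 2.002 (adjusted p = 9.96e-05, with a single control array and the spread of the anergic arrays). Without control array 2 it was 0.86 (adjusted p = 0.091), without anergic array 1 it was 1.88 (0.168) and without anergic array 2 it was 0.98 (0.63). The receptor Tnfrsf11a and the soluble decoy Tnfrsf11b were dim, between 86.1 and 185.5 in anergic cells and between 104.5 and 176 in control cells.

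**Figure D2:**
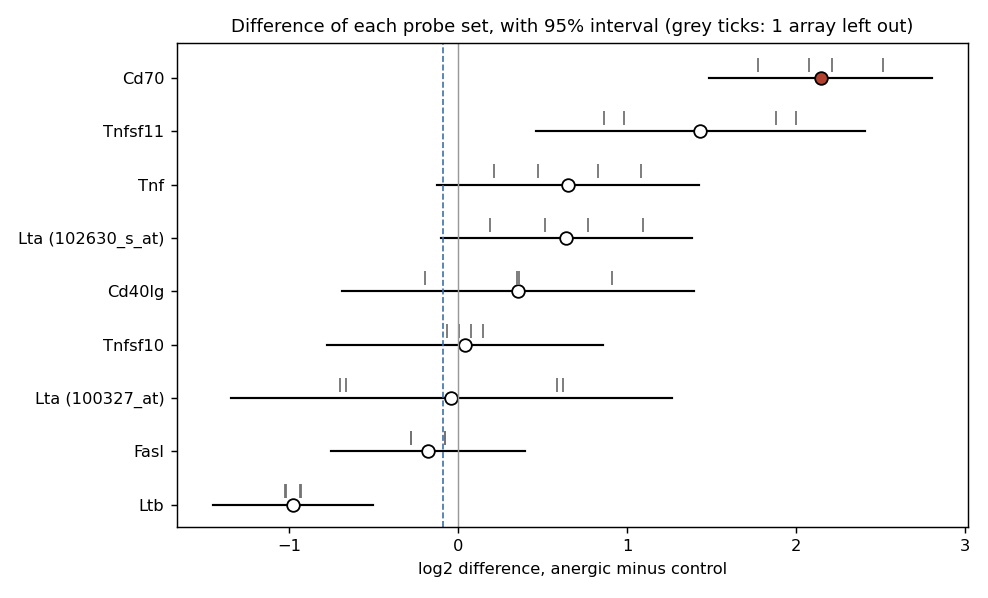
Log2 difference (anergic minus control, horizontal axis) of each ligand probe set with its 95% interval from limma; filled circles passed the adjusted threshold of 0.05, grey ticks are the differences with 1 array left out, and the dashed line is the median of all probe sets tested (-0.085). Cd70 at 2.14 is the only filled circle, and the ticks of Lta (100327_at), Cd40lg and Tnfsf10 lie on both sides of 0.

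Neither of the death ligands Fasl and Tnfsf10 passed the test. Fasl encodes the ligand by which cytotoxic and Th1 cells kill cells that carry Fas, and by which activated T cells can kill each other. It gave 1087.1 and 943.9 in anergic cells, against 1233.5 and 1068.7 in control cells. The groups overlapped, and the difference was -0.18 ± 0.25 (SE, 95% interval -0.75 to 0.40, adjusted p = 0.892). The probe set of the receptor gene Fas was very dim on all 4 arrays, at 2.1 and 2.4 in anergic cells and 5.4 and 4.3 in control cells. Fasl lies on chromosome 1 beside Tnfsf18 and, one gene further, Tnfsf4. Tnfsf4, the ligand of OX40, was below the filter at 136.4 and 52.9 in anergic cells and 75.1 and 46 in control cells.

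Tnfsf10 encodes TRAIL, which kills through death receptors and is known to be induced by interferons. It gave 192 and 226.7 in anergic cells, against 207.6 and 196.7 in control cells. All 4 values were close, with a difference of 0.04 ± 0.35 (SE, 95% interval -0.77 to 0.86, adjusted p = 0.982).

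Cd40lg, the ligand by which helper T cells activate B cells and dendritic cells through CD40, gave 137.6 and 329.8 in anergic cells, against 161 and 162.9 in control cells. Anergic array 2 was the high one and anergic array 1 the lowest of the 4, so the groups overlapped. The difference was 0.36 ± 0.45 (SE, 95% interval -0.68 to 1.40, adjusted p = 0.88), and it was -0.20 without anergic array 2.

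**Figure D3:**
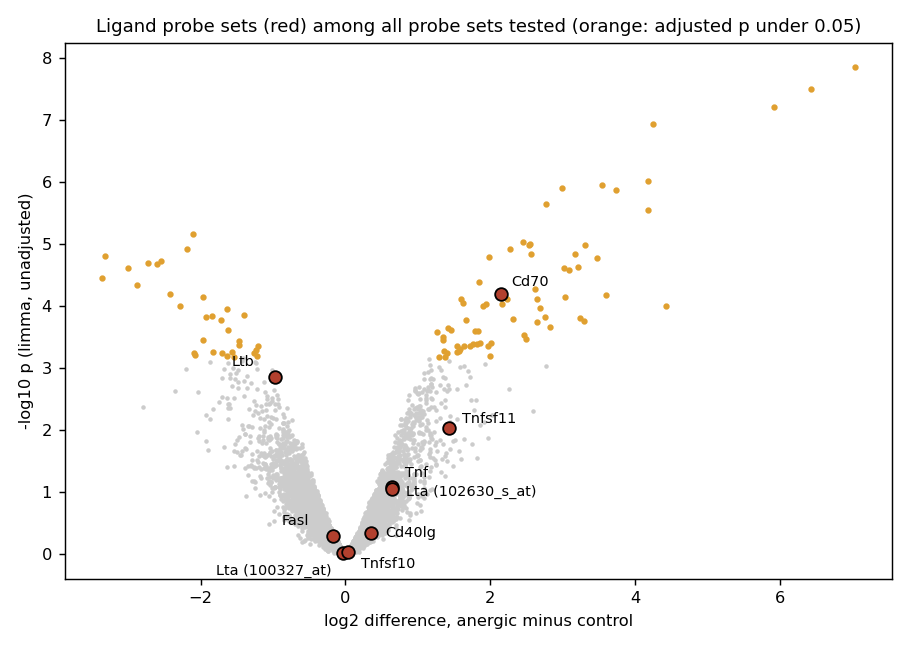
Log2 difference (anergic minus control) against -log10 of the unadjusted limma p for all 7453 probe sets tested (grey), those with an adjusted p below 0.05 (orange) and the 9 ligand probe sets (red). Cd70 lies among the called probe sets that were higher in anergic cells, Ltb just below the called ones that were lower, and Fasl, Tnfsf10 and 1 probe set of Lta near the origin.

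Genes that act with these ligands were read from lists of receptors, other ligands, adaptors, NF-kB genes, transcription factors, RNA-binding proteins and proteases. Of 12 receptor genes of the ligands, 6 had a tested probe set. Limma called 0 of their 7 probe sets, and 1 had an unadjusted p below 0.05, a probe set of Tnfrsf1a. There Tnfrsf1a, the broadly expressed death-domain receptor of Tnf, gave 146.3 and 286.1 in anergic cells, against 364.1 and 514.7 in control cells (difference -0.98 ± 0.39, SE, adjusted p = 0.388). Its other probe set gave 338.4 and 613.1 in anergic cells, against 635.5 and 628.9 in control cells (difference -0.44 ± 0.34, SE, adjusted p = 0.721). Tnfrsf1b, the lymphocyte receptor of Tnf, gave 2223.4 and 1517.4 in anergic cells, against 1913.2 and 693.3 in control cells, with overlapping groups. The median of the receptor list was -0.44. Of the other ligands of the superfamily, 3 probe sets were tested, those of Tnfsf9 and 2 of Eda, and 0 passed in limma, with 0 at an unadjusted p below 0.05 and a median of 0.091.

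Adaptors and death signalling genes had 19 tested probe sets, of 15 of 23 genes, and 0 calls in limma, with 5 at an unadjusted p below 0.05. Higher in anergic cells among these were Tnfaip3, the NF-kB-induced inhibitor A20, at 1.02 ± 0.29 (SE, adjusted p = 0.199), its partner Tnip1 at 0.84, and the receptor adaptors Traf1 and Traf5 at 0.85 and 0.70. Traf6, an adaptor of CD40 and RANK, was lower, with a difference of -0.81 at that probe set and -0.48 and -0.67 at its other ones. The list's median was 0.076.

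NF-kB subunits and inhibitors had 1 call among 9 probe sets, of 7 of 9 genes, with a median of 0.10. In limma 3 of the 9 had an unadjusted p below 0.05. Nfkb2, whose product is the subunit processed in the pathway below Ltbr, CD40 and RANK, was at 2475 ± 170 in anergic and 879.5 ± 78.6 in control cells (SD, n = 2 each). It rose by 1.46 ± 0.24 (SE, adjusted p = 0.0285), a call that was lost without either anergic array (adjusted p = 0.144 and 0.152), with centring (0.122) and without the intensity trend (0.128). Bcl3, an NF-kB cofactor, was at 139 ± 69.6 in anergic and 464.5 ± 79.1 in control cells, a difference of -1.61 ± 0.40 (SE, adjusted p = 0.135). Both probe sets of the inhibitor Nfkbia were higher in anergic cells without overlap of the groups. Their differences of 0.69 ± 0.22 and 0.51 ± 0.22 (SE) did not pass (adjusted p = 0.266 and 0.441 in limma).

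Among transcription factors known to act on ligand genes in T cells, 1 of 20 probe sets, of 17 of 23 genes, was called, and the median was 0.16. In limma 7 of the 20 had an unadjusted p below 0.05. Egr2, a zinc finger factor induced by T cell receptor signals, rose by 2.69 ± 0.39 (SE, adjusted p = 0.0166), with 3501.4 and 7914.3 in anergic cells, against 955.9 and 657.6 in control cells, a call lost without the intensity trend (adjusted p = 0.0984). Irf4 (1.75 ± 0.58, SE) and both probe sets of Junb (1.64 and 1.56) were higher in anergic cells without passing, and Irf1 (-0.87 ± 0.25) and Fos (-1.14 ± 0.37) were lower without passing.

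Of 9 probe sets of RNA-binding proteins that act on transcripts such as that of Tnf (7 of 10 genes, median -0.47), Zfp36l1 was called lower. It was at 1140 ± 380 in anergic and 3310 ± 519 in control cells (SD, n = 2 each), a difference of -1.54 ± 0.29 (SE, adjusted p = 0.0496), and 8 of 14 alternative settings ended the call. Zfp36, the decay factor best known for destabilising Tnf mRNA, gave 1552 and 804.1 in anergic cells, against 476.5 and 570.3 in control cells (difference 1.06 ± 0.35, SE, adjusted p = 0.266). By unadjusted p in limma, 3 of these 9 probe sets were below 0.05. Proteases and inhibitors of ligand release had 4 tested probe sets, of Furin, Adam10 and Mmp14, and 0 calls in limma, with 0 at an unadjusted p below 0.05 and a median of 0.22. The probe set of Adam17, the enzyme that sheds Tnf, was below the filter.

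**Figure D4:**
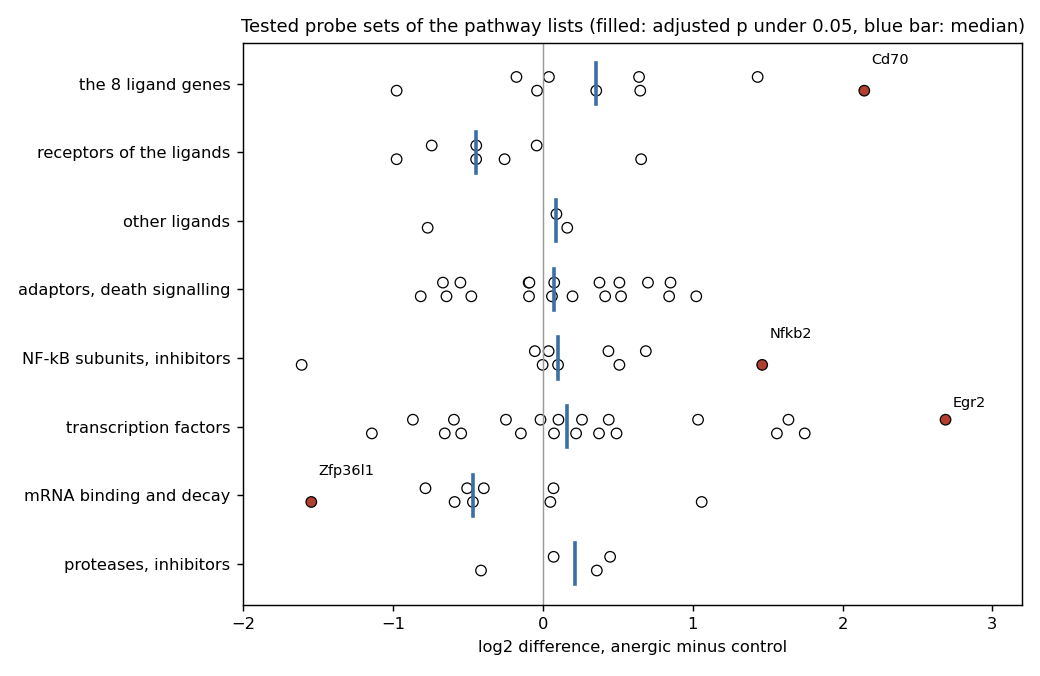
Log2 difference (anergic minus control) of every tested probe set of the 8 ligand genes and of 7 related lists; filled circles passed the adjusted threshold of 0.05 and blue bars are list medians. Cd70, Nfkb2 and Egr2 are the filled circles to the right of 0 and Zfp36l1 the one to the left.

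Other cells could bring ligand transcripts into such samples, and in bulk RNA fewer cells of a type and less RNA per cell cannot be told apart. Of 9 macrophage and dendritic cell genes, all on the array, 5 were tested, with 1 probe set each, and 1 was called. Cd68 had 497.6 and 531.5 in anergic cells, against 71 and 91.3 in control cells (difference 2.31 ± 0.35, SE, adjusted p = 0.0216), a call lost without either anergic array (adjusted p = 0.141 and 0.117) and with no filter (0.0661). Among all 14 probe sets of the list, 4 were higher in anergic cells with groups that did not overlap, those of Cd68, Csf1r and 2 of Adgre1. In 2 the anergic arrays were the lower ones, those of Lyz2 and the dim probe set of Cd68, and in 8 the groups overlapped. Of the probe sets without overlap, only the called one of Cd68 had passed the filter. Over all probe sets tested, the groups did not overlap for 40.3%, a share that leaves out probe sets below the filter. The dim probe set of Csf1r gave 55.8 and 125.7 in anergic cells, against 21.1 and 25.9 in control cells, and its tested one overlapped. Adgre1 gave 36.4 and 36.9 in anergic cells, against 24 and 20.2 in control cells, at its brighter probe set. The list summed to 1622 and 2302 on the anergic arrays and to 1398 and 1758 on the control arrays, so the sums overlapped. Cd14 made up much of them, at 684.4 and 858.2 in anergic and 764.1 and 931.9 in control cells. Without Cd14, a choice made after its values were seen, the sums were 937.8 and 1444 in anergic cells, against 634.2 and 825.7 in control cells, and did not overlap. Without Cd14 and Cd68 they were 434.2 and 908.9 in anergic cells, against 552.1 and 727.9 in control cells, and overlapped. Itgam and Mrc1 were at or below 33.6 on the anergic arrays and at or below 17.4 on the control arrays. The probe set of Lyz2 without overlap gave 11.7 and 11.4 in anergic cells, against 129.1 and 73.3 in control cells. The other probe set of Lyz2 gave 7 and 5.1 in anergic cells, against 5 and 8.7 in control cells. B cell genes summed to 689.9 and 994.2 on the anergic arrays and to 748.2 and 1168 on the control arrays, and none of their 4 tested probe sets passed in limma (0 at an unadjusted p below 0.05). Markers of CD8 T and NK cells, granulocytes and mast cells, erythroid cells and platelets, stroma and Th2 cells had 0 calls in limma among 1, 3, 1, 2 and 1 tested probe sets, and 0 at an unadjusted p below 0.05. The part of other cells in the level of Cd70 was not tested.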

How the data were processed

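Biotin-labelled cRNA from Trizol-extracted RNA was hybridised to 4 arrays, per the labels' protocols. The authors deposited intensities on a linear scale, 1 per probe set and array; how scanned images became probe set values is not given in the sources used here. They had been scaled, since the mean trimmed by 2% at each end was 500.3 on every array. Names came from GEO's annotation of the platform, checked by gene ID against a RefSeq table (10817 of 10833 single-symbol probe sets matched, 396 had several symbols and 1193 were not listed).

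Intensities were transformed as log2(value + 29.15), the pseudocount being the median over arrays of the 20th percentile, so fold changes of dim genes are understated. Without the 66 control probe sets, those above the 40th percentile of mean log2 value (7453) were compared between groups (taken from the array titles) with limma 3.58.1 in R 4.3.3 (lmFit, eBayes with intensity trend, two-sided, Benjamini-Hochberg over all tested probe sets). The fit had 2 residual and 6.17 prior degrees of freedom, and the smallest p of an exact permutation test between groups of 2 is 0.333. The script was tested on simulated data. Members, lists and tests were chosen with earlier results of these data known. The text names all ligand probe sets, list genes that passed and otherwise up to 4 per list with the smallest p, the 3 nearest patterns for Cd70 and Ltb, and neighbouring genes; list medians, other list genes and markers are given as context. Alternatives were the pseudocount, the filter, the scaling, the trend, the choice of probe set, the replicate number as a block and leaving out each array.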

Additional observations from a re-analysis of the deposited data

How the results depend on the processing

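With 2 arrays per group, the spread behind each p-value is borrowed largely from other probe sets, and no signal over background is given that would mark a dim value as undetected. The 100 probe sets called became 59 with no filter on dim probe sets, 64 with arrays centred on their medians, 38 without the intensity trend and between 43 and 344 with 1 array left out, where a group has a single array that is assumed to vary like the other group. The 1 ligand probe set called (Cd70) became 2 with quantile normalization and 2 with 1 probe set per gene (Cd70 and Ltb), 0 without the trend (3 at an unadjusted p below 0.05 in limma), and between 1 and 3 with 1 array left out. The replicate number as a block gave 761 calls in all and 3 among ligand probe sets (Cd70, Ltb with adjusted p = 0.004 and Tnfsf11 with 0.0166). In the labels, arrays of the 2 groups share only a number, and no label says what it marks. Deviations from the group means correlated at 0.537 between arrays numbered 1. The arrays numbered 2 give the same value by construction. Pearson correlations between anergic and control arrays were 0.924 and 0.921 for the same number and 0.887 and 0.891 for different numbers. Within the groups they were 0.944 (anergic) and 0.925 (control). Cd70 was higher in anergic cells in all 14 alternatives (1.77 to 2.52), several of which keep the difference of the main fit by construction. With all arrays kept, its call was lost only without the trend. Ltb was lower in all 14 (-1.02 to -0.87). With all arrays kept, it was called only with quantile normalization, with 1 probe set per gene and with the replicate block. Directions turned for the following uncalled probe sets. Lta (100327_at) was at 0.0678 with centring, 0.0753 with quantile normalization, 0.302 with the mean of its probe sets, and between -0.699 and 0.622 with 1 array left out. With 1 array left out, Cd40lg ranged from -0.197 to 0.909 and Tnfsf10 from -0.0643 to 0.146. The cause of these changes was not tested.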
